A study of Mus musculus with 12 samples.

Results

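The trunk Hox genes of paralogue groups 6 to 9 were followed along the posterior neural tube of the mouse embryo. The 10 genes considered were Hoxb6 and Hoxc6, Hoxa7 and Hoxb7, Hoxb8, Hoxc8 and Hoxd8, and Hoxa9, Hoxb9 and Hoxc9. They were represented by every probe set whose platform annotation named exactly 1 gene, that gene being one of the 10. Such probe sets existed for 9 of the genes, 13 probe sets in all out of 34945 naming 1 gene. Of these, 12 probe sets of 8 genes passed the filter on low signals and were tested among 12089 genes. Hoxb8 had no probe set of its own, and the probe set of Hoxb7 did not pass the filter.

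All tissue came from CD1 (outbred) embryos at embryonic day 9.5, treated with pancreatin, a digestive enzyme mixture (2 mg per ml, 1 min), and the neural tube, freed of ectoderm, endoderm and lateral plate with needles, was cut into 6 pieces. The groups were the pieces themselves, parts 1, 2, 3, 4, 5 and 6, with 2 arrays each, 12 in all, and the groups did not differ in treatment or genotype. Per the series' design text the tissue came from 2 embryos, so that each piece was measured in only 2 animals. The labels do not say which number is the caudal end, and all values are given by part number.

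Hox genes encode homeodomain transcription factors that lie in 4 clusters, Hoxa to Hoxd, and are switched on in the order in which they lie there, so that each level of the body axis carries its own combination. Genes of the middle of the clusters mark the trunk, and in the spinal cord they take part in setting which motor neuron columns and pools form at limb and thoracic levels. Their expression is started in the tail bud under Wnt and FGF signals and the caudal-type homeobox factors of the Cdx family, and is carried forward as cells leave it. Presomitic mesoderm, somites and lateral plate express the same genes.

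The values are linear array intensities in the arbitrary units of the MAS5 program, scaled to the same trimmed mean on every array. Array medians ran from 16.7 to 19.1, and signals of a few units have no order. Because probe sets differ in how well they bind, the level of one gene was not set against that of another. In such pieces, fewer cells expressing a gene and less RNA per cell cannot be told apart. Markers of neural progenitors differed along the pieces. Sox2, one of them, gave signals of 1426 and 1611 in part 6, against 199 and 286 in part 1. Summed over 10 neural progenitor markers, the signal was 7520 to 7803 in part 6 and 2350 to 2945 in part 1. Between parts 6 and 1, the limma test described below called 1099 of all 12089 genes in either direction. By it, 7 of the 10 were higher in part 6 than in part 1, 0 were lower and 3 did not pass. Of these 3, Nkx1-2 had means of 977 in part 6 and 1578 in part 1, Nes 109 and 133, and Cdh2 857 and 478. In part 1 the largest signals of the list were those of Nkx1-2, 1266 and 1889.

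All 8 tested trunk Hox genes had a negative slope over the part number, and 4 passed the test: Hoxa7, Hoxc6, Hoxc9 and Hoxd8 fell with rising part number. The slope, the change in log2(signal + 4.43) per part, was fitted over all 12 arrays with limma and adjusted by Benjamini-Hochberg over all genes at a threshold of 0.05. Lower calls were made for 7.08% of all genes and higher calls for 5.66%, and the trunk Hox genes gave 4 lower and 0 higher calls. The median slope of the 8 genes was -0.15 log2 per part, between -0.29 and -0.06, beside a median of -0.01 over all genes. Of all genes, 54.0% had a negative slope. Among the 8 genes, all 8 had an unadjusted limma p under the threshold, as had 3210 of all 12089 genes.

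**Figure D1:**
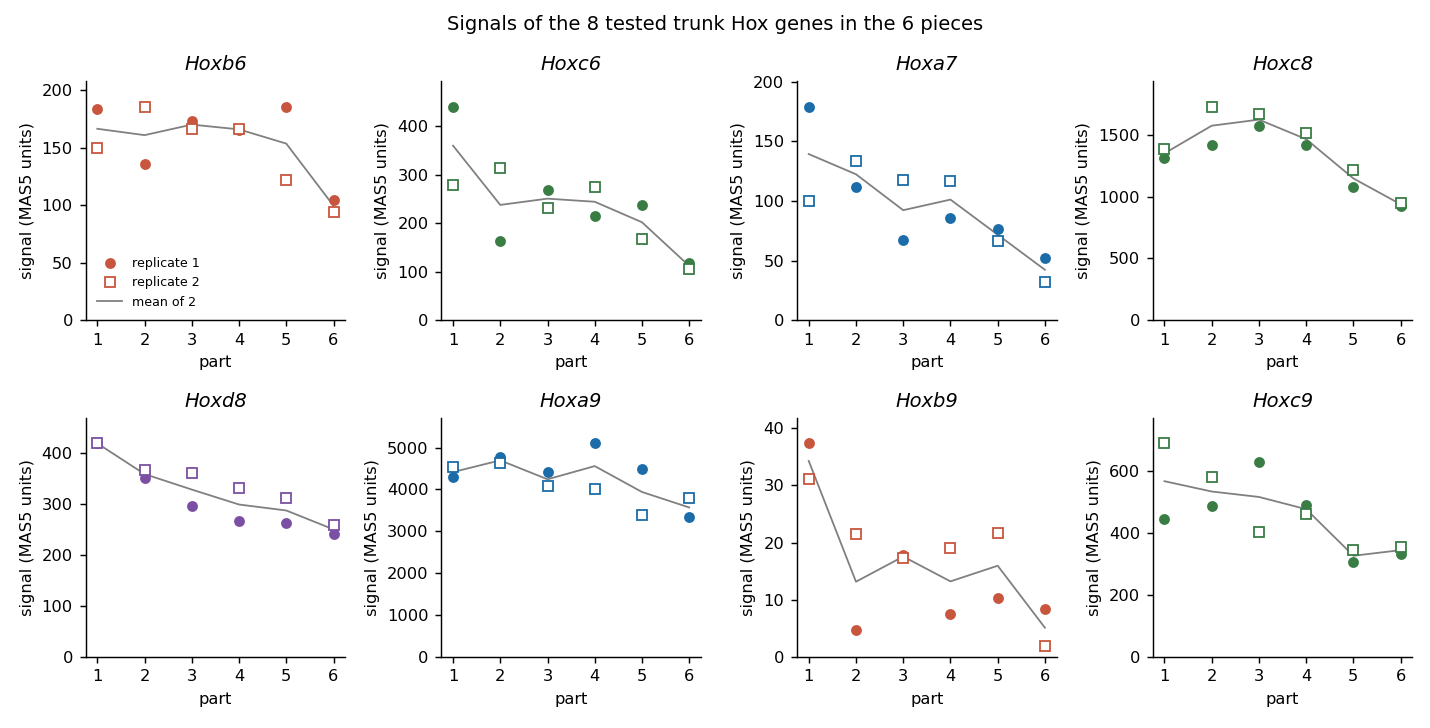
Signal in MAS5 units (vertical axes, each starting at 0) against part number for the 8 tested trunk Hox genes, with replicate 1 as filled circles, replicate 2 as open squares and the mean of the 2 as a line. In 7 of the 8 genes the lowest mean lies in part 6, and Hoxc8 has its highest mean, 1626, in part 3.

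In paralogue group 6, Hoxc6 fell and Hoxb6 did not pass. Hoxc6, a gene of the limb-level spinal cord, had signals of 441 and 280 in part 1, 163 and 313 in part 2, 269 and 232 in part 3, 215 and 274 in part 4, 237 and 167 in part 5, and 118 and 106 in part 6. Its 2 highest arrays, in part 1 and part 2, had different replicate numbers, and both arrays of part 6 lay below all others. The slope was -0.25 ± 0.06 log2 per part (SE), with a limma adjusted p of 0.0164. It did not pass when the first array of part 1 (adjusted p = 0.0678) or the first (0.0599) or second (0.0676) array of part 6 was removed. This probe set is of the type that Affymetrix marks as able to bind related sequences. The other probe sets of Hoxc6 had slopes of -0.19 and -0.14, with limma adjusted p of 0.0705 and 0.0618 among all kept probe sets.

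Hoxb6, a trunk gene of the Hoxb cluster, had close means in all pieces but part 6. Its signals were 184 and 149 in part 1, 136 and 186 in part 2, 174 and 167 in part 3, 166 and 166 in part 4, 185 and 122 in part 5, and 105 and 94.1 in part 6. The means of parts 1 to 5 lay between 154 and 170, and that of part 6 was 99.5 ± 7.65 (SD, n = 2). Both arrays of part 6 were below the other 10. The slope of -0.11 ± 0.04 did not pass (limma adjusted p = 0.125).

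In paralogue group 7, Hoxa7, known for its part in patterning thoracic vertebrae, fell. Its signals were 179 and 99.5 in part 1, 111 and 133 in part 2, 67.2 and 117 in part 3, 85.9 and 116 in part 4, 76.7 and 66.6 in part 5, and 52.1 and 32.3 in part 6. The 4 arrays of parts 5 and 6 lay below the 4 of parts 1 and 2, and both arrays of part 6 lay below all others. The mean signal in part 6 was 30.3% of that in part 1. Its slope was -0.29 ± 0.06 log2 per part (limma adjusted p = 0.00594) and passed on leaving out any single array, but not without both arrays of part 6 (-0.20, adjusted p = 0.113). Hoxb7 could not be followed: its probe set gave signals between 1.49 and 11, below the median of its own array on all 12 arrays.

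The RefSeq promoter table (GRCm38.p6, 250 bases before to 50 after the start of each gene) held 4 of the 10 genes, Hoxa7, Hoxa9, Hoxb8 and Hoxd8. Those of Hoxa7 and Hoxd8, the called genes among them, and of Hoxa9, which was not called, are shown to compare genes with and without the core letters of the Cdx binding motif. The letters TTTATG, searched on both strands, are in capitals.
Hoxa7 promoter (GRCm38.p6, chr6:52218524-52218823, minus strand): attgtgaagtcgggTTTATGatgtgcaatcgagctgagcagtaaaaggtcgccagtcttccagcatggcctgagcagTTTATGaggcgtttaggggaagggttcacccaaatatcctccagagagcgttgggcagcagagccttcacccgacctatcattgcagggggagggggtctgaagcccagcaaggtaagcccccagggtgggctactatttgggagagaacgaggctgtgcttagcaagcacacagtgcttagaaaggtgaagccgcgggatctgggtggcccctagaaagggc
Hoxd8 promoter (GRCm38.p6, chr2:74704365-74704664, plus strand): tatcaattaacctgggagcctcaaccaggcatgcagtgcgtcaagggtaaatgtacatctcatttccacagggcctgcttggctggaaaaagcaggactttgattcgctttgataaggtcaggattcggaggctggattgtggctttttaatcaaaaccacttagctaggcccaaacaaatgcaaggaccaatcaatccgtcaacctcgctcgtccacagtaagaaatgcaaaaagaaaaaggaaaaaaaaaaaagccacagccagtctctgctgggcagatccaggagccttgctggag
Hoxa9 promoter (GRCm38.p6, chr6:52227321-52227620, minus strand): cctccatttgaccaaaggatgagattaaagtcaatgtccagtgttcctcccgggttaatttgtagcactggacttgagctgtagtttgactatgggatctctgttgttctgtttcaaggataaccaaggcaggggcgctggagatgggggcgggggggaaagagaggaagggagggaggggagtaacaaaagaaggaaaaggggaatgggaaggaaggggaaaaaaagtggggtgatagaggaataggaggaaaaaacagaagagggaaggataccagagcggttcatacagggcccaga

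The Hoxa7 promoter held TTTATG at 2 places, with first bases at -236 and -173 from the start site, and the promoters of Hoxd8 and Hoxa9 held it at 0. The Hoxb8 promoter, whose gene was not measured on its own, also held it at 2 places. Of 32851 promoter windows of the same length, 11.9% held these letters at least once and 1.27% at 2 or more places. A second motif, TGATNNAT, which Hox and Pbx proteins bind together, was in the window of Hoxb8 only among the 4, and in 8.85% of all windows. These matches are descriptions of the letters, and no binding was measured.

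In paralogue group 8, Hoxd8 fell and Hoxc8 was highest in inner pieces. Hoxd8, a gene of the trunk skeleton and neural tube, had signals of 420 and 420 in part 1, 351 and 368 in part 2, 297 and 360 in part 3, 267 and 331 in part 4, 264 and 312 in part 5, and 241 and 260 in part 6. In replicate 1 and in replicate 2 alike, each piece was below the one before it. The slope was -0.14 ± 0.03 log2 per part with the smallest adjusted p of the 8 (0.00314, limma), and the call was kept on leaving out any single array. Its other probe set, which can bind several transcripts, took another course, with means over parts 1 to 6 of 238, 330, 308, 317, 238 and 171, and its slope of -0.10 did not pass (adjusted p = 0.320).

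Hoxc8, which takes part in motor neuron pool identity in the brachial spinal cord, had signals of 1314 and 1390 in part 1, 1422 and 1731 in part 2, 1577 and 1674 in part 3, 1417 and 1517 in part 4, 1077 and 1220 in part 5, and 928 and 950 in part 6. The 4 arrays of parts 5 and 6 lay below all 8 others, and both arrays of part 3 lay above both of part 1. Its slope of -0.12 ± 0.04 log2 per part did not pass (limma adjusted p = 0.0583), but did without the first (0.0311) or the second (0.0407) array of part 1. A curvature term, the coefficient of the squared part number, was -0.07 ± 0.02 and passed narrowly (limma adjusted p = 0.0496); lower calls of curvature were made for 0.96% of all genes and for 1 of the 8. It did not survive the removal of any single array (12 refits, limma adjusted p between 0.0507 and 0.118).

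In paralogue group 9, Hoxc9 fell, Hoxb9 was dim and Hoxa9 had the shallowest slope. Hoxc9, which sets thoracic motor neuron identity, had signals of 445 and 690 in part 1, 488 and 581 in part 2, 631 and 402 in part 3, 492 and 463 in part 4, 307 and 346 in part 5, and 333 and 356 in part 6. All 8 arrays of parts 1 to 4 lay above the 4 of parts 5 and 6, and parts 5 and 6 overlapped. The slope was -0.16 ± 0.04 (limma adjusted p = 0.0233). Removing the second array of part 1 gave an adjusted p of 0.0703 and removing the first array of part 6 one of 0.0601, so that the call rests on both.

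Hoxb9 had signals of 37.4 and 31.2 in part 1, 4.71 and 21.6 in part 2, 17.9 and 17.2 in part 3, 7.41 and 19.0 in part 4, 10.3 and 21.6 in part 5, and 8.29 and 1.88 in part 6. It exceeded the median of its own array on 5 of 12 arrays, and only part 1 lay above all other pieces. Part 6 lay below parts 1, 3 and 5 and overlapped with parts 2 and 4. Its slope of -0.28 ± 0.10 did not pass (limma adjusted p = 0.0844) but did when the first array of part 2 (0.00872) or the second of part 5 (0.0464) was removed, and its size depends on the offset of 4.43.

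Hoxa9, which acts with the other group 9 genes at thoracic level, gave 4291 and 4536 in part 1, 4762 and 4625 in part 2, 4406 and 4075 in part 3, 5099 and 4013 in part 4, 4479 and 3396 in part 5, and 3350 and 3785 in part 6. Part 6 overlapped with part 5 and lay below parts 1 to 4, while part 5 overlapped with every piece except part 2. The slope was -0.06 ± 0.03 (limma adjusted p = 0.184). A dimmer probe set of Hoxa9 lay between 67.6 and 143 and had a slope of -0.07 (adjusted p = 0.366). The part 6 mean of the brighter probe set was 80.8% of its part 1 mean, the highest such share among the 8 genes.

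**Figure D2:**
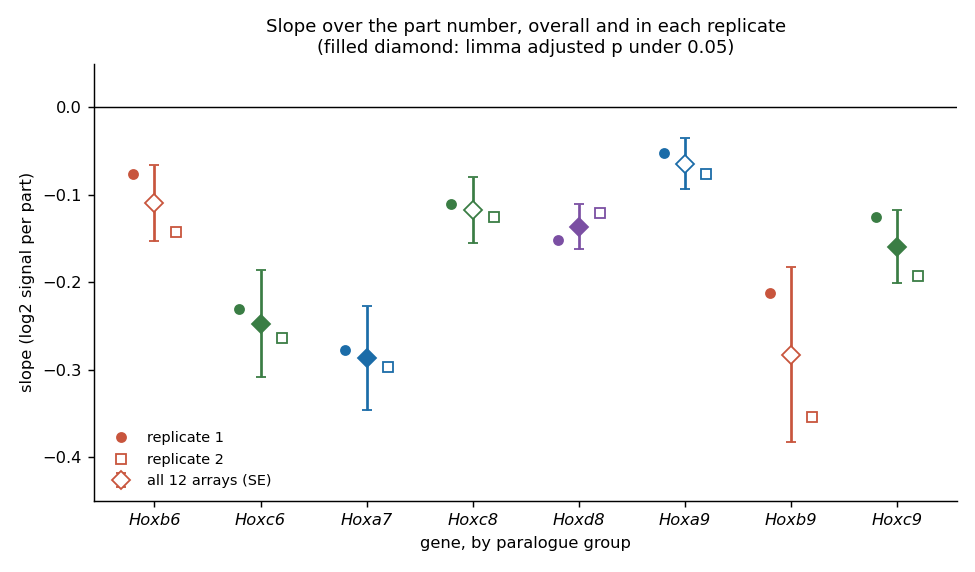
Slope of the log2 signal per part (vertical axis) for the 8 tested trunk Hox genes, ordered by paralogue group, over all 12 arrays (diamonds with SE, filled where the limma adjusted p is under 0.05) and within replicate 1 (circles) and replicate 2 (squares). All 24 slopes lie below 0, from -0.05 for Hoxa9 in replicate 1 to -0.35 for Hoxb9 in replicate 2.

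Replicate numbers 1 and 2 gave the same direction for every gene. They were taken to mark the 2 embryos, which the labels do not state. Within replicate 1 the slopes lay between -0.28 and -0.05 and within replicate 2 between -0.35 and -0.08, 8 of 8 below 0 in each, where 53.4% of all genes in replicate 1 and 52.9% in replicate 2 had negative slopes. With a slope for each embryo in 1 fit, which share one residual spread, Hoxd8 passed in replicate 1 (limma adjusted p = 0.0131) and in replicate 2 (0.0402), the only one of the 8 in each, beside lower calls for 4.25% of all genes in replicate 1 and 3.25% in replicate 2. The difference between the slopes of the replicates gave 0 calls among the 8 genes and 0% among all genes with limma. An unadjusted p under the threshold was found for 0 of the 8 and for 798 of 12089 genes. The level in replicate 2 against replicate 1, with the piece as covariate, gave 0 calls among the 8, against 1.63% of all genes. Here 0 of the 8 and 2395 of 12089 genes had an unadjusted p under the threshold. These comparisons had 6 arrays per embryo, and a p that misses the threshold does not show equal courses.

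Between the end pieces, Hoxa7, Hoxb9, Hoxc6 and Hoxd8 were lower in part 6. The difference of part 6 against part 1 was -1.60 ± 0.35 log2 for Hoxa7 (limma adjusted p = 0.0205), -1.62 ± 0.33 for Hoxc6 (0.0158), -0.73 ± 0.18 for Hoxd8 (0.0329) and -2.11 ± 0.53 for Hoxb9 (0.0391). The mean signal of Hoxa7 was 42.2 ± 14 in part 6 and 139 ± 56.3 in part 1 (SD, n = 2 here and below), and that of Hoxc6 was 112 ± 8.17 in part 6 and 360 ± 114 in part 1. Hoxd8 averaged 251 ± 13 in part 6 and 420 ± 0.0569 in part 1, and Hoxb9 averaged 5.08 ± 4.54 in part 6 and 34.3 ± 4.36 in part 1. Both Hoxb9 signals in part 6 lay below the array medians, so the size of its log2 difference is set in part by the offset; with an offset of 1 it was -2.76 and did not pass (limma adjusted p = 0.0569). The calls of Hoxc6 and Hoxd8 held for 1 probe set of each. Among all kept probe sets, the other of Hoxd8 had -0.47 (limma adjusted p = 0.381), and the others of Hoxc6 had -1.19 (0.0876) and -0.72 (0.165). Lower calls were made for 4.92% of all genes and for 4 of the 8. The other differences were -0.71 ± 0.23 for Hoxb6 (adjusted p = 0.0951), -0.52 ± 0.16 for Hoxc8 (0.0824), -0.68 ± 0.26 for Hoxc9 (0.151) and -0.31 ± 0.19 for Hoxa9 (0.384). With the embryo as a block Hoxc8 passed (limma adjusted p = 0.0448). All 4 calls were lost without replicate 1 of part 1 or without replicate 2 of part 6, 3 of the 4 without replicate 1 of part 6 and 2 of the 4 without replicate 2 of part 1. Hoxd8 also missed the threshold when either array of part 2 (0.0522 and 0.0521) or the first array of part 5 (0.05002) was removed, and Hoxb9 when either array of part 3 was (0.0604 and 0.0608).

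The arrays of part 6 lay below those of part 1 for all 8 genes, where 26.7% of all genes showed this. Chosen after the values were seen, a stricter count asked whether both arrays of part 6 lay below all 10 others. This was so for 5 of the 8 genes, Hoxa7, Hoxb6, Hoxc6, Hoxc8 and Hoxd8, and for 3.98% of all genes. Between part 6 and part 5 alone, 6 of the 8 did not overlap and were lower (20.5% of all genes), and parts 5 and 6 lay below parts 1 and 2 for 4 of the 8, Hoxa7, Hoxc8, Hoxc9 and Hoxd8 (8.4% of all genes). Of the stricter count, Hoxc9 and Hoxa9 missed it through arrays of part 5 and Hoxb9 through 1 array each of part 2 and part 4.

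The difference was larger over the higher-numbered pieces than over the lower-numbered ones in most genes. Parts 5 and 6 against parts 3 and 4 gave negative differences in 8 of 8 genes, with a median of -0.54 log2, and parts 3 and 4 against parts 1 and 2 in 6 of 8, with a median of -0.17. Over all genes both medians were -0.01, with 53.0% and 50.9% of the differences negative. In the first of these comparisons Hoxc8 was lower, by -0.57 ± 0.12 log2 (limma adjusted p = 0.0441), the only call among the 8, beside lower calls for 0.794% of all genes. The second gave 0 calls among the 8 (1 at an unadjusted p under the threshold, Hoxd8), beside 3.91% of all genes. Of all 12089 genes, 1784 had an unadjusted p under the threshold in the second. The call of Hoxc8 was lost on leaving out any array except those of part 1, and whether the 2 differences differ from each other was not tested.

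Between neighbouring pieces, limma made 0 calls among the 8 genes in any of the 5 comparisons. At an unadjusted p under the threshold there were 1 from part 1 to part 2 (Hoxb9) and 2 from part 5 to part 6 (Hoxb6 and Hoxc6), and 0 in the others. From part 1 onward, the 5 steps had 1303, 608, 391, 439 and 463 of all 12089 genes under it. Calls among all genes were few as well, 0.248% for part 2 against part 1, 0.19% for part 3 against part 2 and 0.00827% for each later step. The F test among the 6 pieces gave 0 calls among the 8, beside 4.91% of all genes, with the smallest adjusted p for Hoxc8 (limma, 0.0905). Its unadjusted p was under the threshold for 4 of the 8 and for 1904 of 12089 genes. With the embryo as a block, 1 of the 8, Hoxc8, passed the F test.

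Slopes were compared directly between paralogues through the difference of their log2 signals on each array. Within clusters, 3 pairs were tested by permutation of the part numbers within each embryo (100000 resamples, two-sided, adjusted over the 3). Hoxa9 minus Hoxa7 had a slope of 0.22 ± 0.07 log2 per part (SE; permutation p = 0.0113, adjusted p = 0.0338), so that Hoxa7 fell relative to Hoxa9, by 0.22 in replicate 1 and 0.22 in replicate 2. Hoxb9 minus Hoxb6 had a slope of -0.17 ± 0.10 (permutation p = 0.130, adjusted p = 0.196) and Hoxc9 minus Hoxc6 one of 0.09 ± 0.09 (permutation p = 0.337, adjusted p = 0.337). In the Hoxa and Hoxc pairs the higher-numbered paralogue had the shallower slope, and in the Hoxb pair the steeper one, but only the Hoxa pair passed. Within the Hoxc cluster, Hoxc8 had a shallower slope (-0.12) than the higher-numbered Hoxc9 (-0.16). The Hoxa difference kept its direction, but not its call, on leaving out any of 9 single arrays, with permutation adjusted p up to 0.183.

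Between clusters, 5 pairs of the same paralogue number could be compared. Hoxb6 minus Hoxc6 had a slope of 0.14 ± 0.04 log2 per part (permutation p = 0.00375, adjusted p = 0.0187 over the 5), so that Hoxc6 fell relative to Hoxb6, with 0.15 in replicate 1 and 0.12 in replicate 2. This call did not survive the removal of any one of the 4 arrays of parts 1 and 6 (permutation adjusted p up to 0.0947). It was made with the brightest Hoxc6 probe set, the type able to bind related sequences. The other Hoxc6 probe sets had slopes of -0.19 and -0.14, beside -0.11 for Hoxb6, and neither was paired singly. The slopes were 0.09 ± 0.04 for Hoxa9 minus Hoxc9 (permutation p = 0.0508, adjusted p = 0.127), 0.22 ± 0.13 for Hoxa9 minus Hoxb9 (0.129, adjusted 0.215), 0.12 ± 0.13 for Hoxc9 minus Hoxb9 (0.363, adjusted 0.454) and -0.02 ± 0.04 for Hoxd8 minus Hoxc8 (0.683, adjusted 0.683), none of which passed.

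**Figure D3:**
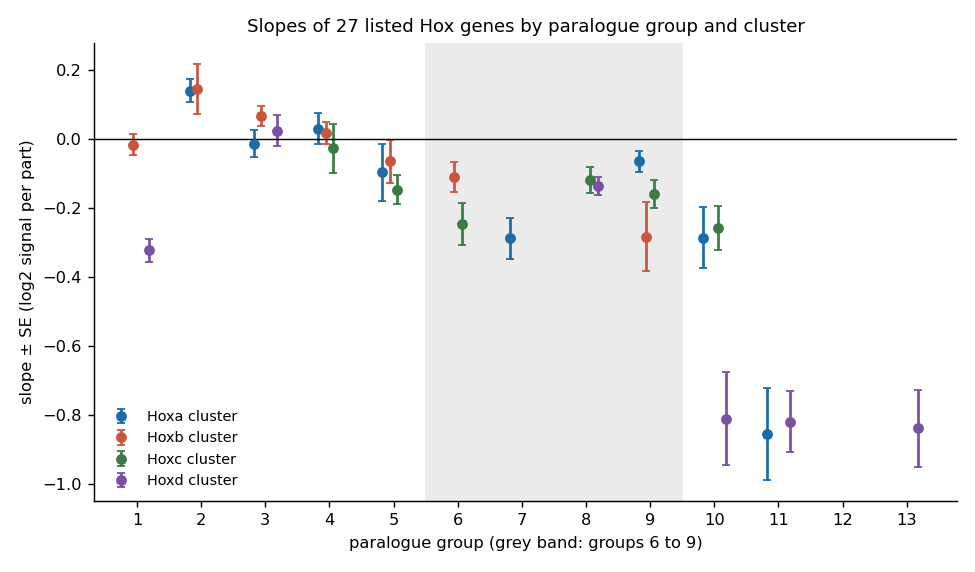
Slope of the log2 signal per part with its SE (vertical axis) against paralogue group for 27 listed Hox genes, coloured by cluster, with groups 6 to 9 on the grey band. The 8 trunk genes lie between -0.29 and -0.06, groups 1 to 5 reach from -0.32 to 0.15, and the 6 tested genes of groups 10 to 13 lie between -0.85 and -0.26.

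By paralogue number the slopes of the trunk genes showed no order: medians were -0.18 in group 6 (2 genes), -0.29 in group 7 (1 gene), -0.13 in group 8 (2 genes) and -0.16 in group 9 (3 genes). By cluster they were -0.18 for Hoxa, -0.20 for Hoxb, -0.16 for Hoxc and -0.14 for Hoxd. Every one of these groups overlapped with others in range or held 1 gene. Beside them, the 13 tested genes of groups 1 to 5 had a median slope of -0.01, with 1 higher and 2 lower calls. The 6 tested of groups 10 to 13 had a median of -0.82, with 6 lower calls, beside 7.08% of all genes. Of 12 listed genes of groups 10 to 13, 10 had a probe set naming 1 gene and 6 passed the filter. Among these 6, Hoxd11 and Hoxd13 passed it only through arrays of parts 1 to 4, where they were highest. The median and calls of this block are therefore partly set by the filter. At the borders, Hoxc5 (-0.15 ± 0.04, limma adjusted p = 0.0403) lay within the range of the trunk genes, as did Hoxc10 (-0.26 ± 0.06, 0.0160) and Hoxa10 (-0.29 ± 0.09, 0.0497), whereas Hoxd10 had -0.81 ± 0.14 (0.00142). Whether the 3 blocks differ was not tested.

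The arrays of the 8 genes moved together to a differing degree. Across the 12 arrays all 28 pairs of genes correlated positively (Pearson r from 0.04 to 0.90, median 0.62), a description in which all points share the pieces, the embryos and the array scaling. The closest pair was Hoxb6 and Hoxc6 (0.90), which were nearest to each other among all listed Hox genes. Hoxc8 was nearest to Hoxc10 (0.93), Hoxa7 to Hoxd10 (0.86), Hoxa9 to Hoxa11 (0.84), Hoxb9 to Hoxc6 (0.82), Hoxc9 to Hoxd11 (0.81) and Hoxd8 to Hoxd11 (0.80). The average of the centred log2 signals of the 8 genes was 0.49 and 0.34 in part 1, -0.08 and 0.38 in part 2, 0.14 and 0.15 in part 3, -0.03 and 0.18 in part 4, -0.14 and -0.17 in part 5, and -0.53 and -0.72 in part 6. Replicate 1 of part 2 was lower than its partner, and both arrays of part 6 were the lowest.

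Among all other genes tested, clone and predicted-gene symbols passed over, the one most like this average course over the 12 arrays was Cdx2, a caudal-type homeobox factor that regulates trunk Hox genes (Pearson r = 0.95). Cdx2 had signals of 1202 and 1039 in part 1, 822 and 1630 in part 2, 884 and 880 in part 3, 659 and 858 in part 4, 420 and 415 in part 5, and 196 and 217 in part 6. As in the Hox average, replicate 1 of part 2 was below replicate 2. Its slope was -0.48 ± 0.07 log2 per part (limma adjusted p = 0.000345). The next were Tm2d2 (0.95), Mfge8, a secreted glycoprotein (0.95), Syne4, a nuclear envelope protein (0.94), and Stra6l (0.94).

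**Figure D4:**
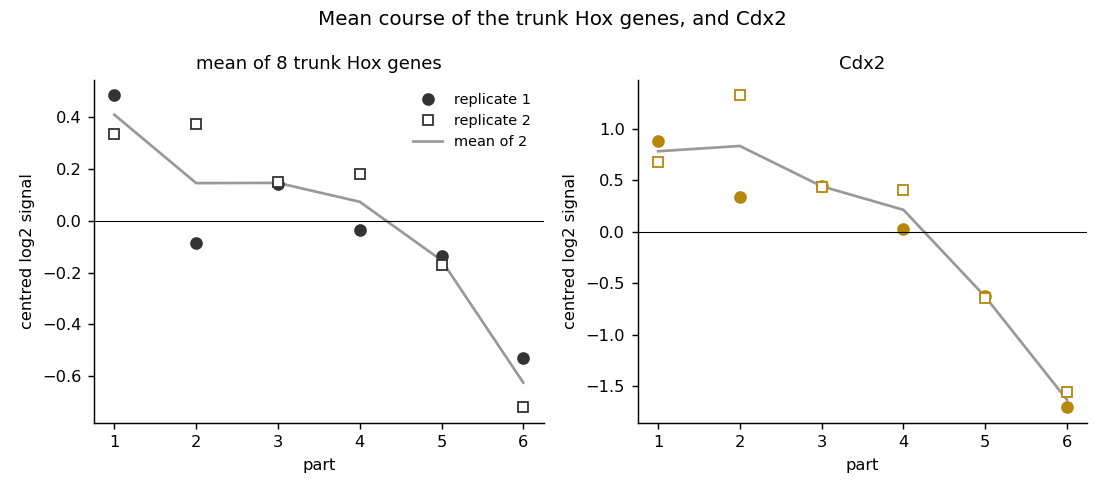
Centred log2 signal (vertical axes) against part number for the average of the 8 tested trunk Hox genes (left) and for Cdx2 (right), replicate 1 as filled circles, replicate 2 as open squares and their mean as a line. Both are lowest in part 6, at -0.53 and -0.72 for the Hox average and at -1.70 and -1.56 for Cdx2, and the vertical scales differ between the panels.

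The factors and signals known to act upstream of trunk Hox genes differed in course. Of 12 tested, 7 fell, 2 rose and 3 did not pass, with a median slope of -0.30 log2 per part. Over all genes, lower calls were made for 7.08% and higher calls for 5.66%. Cdx4, which acts with Cdx2, had mean signals over parts 1 to 6 of 834 ± 264, 749 ± 167, 640 ± 216, 432 ± 18.5, 291 ± 6.74 and 147 ± 10.3 (SD, n = 2 each), and fell with a slope of -0.48 ± 0.06 (limma adjusted p = 9.00e-05). Cdx1 is counted among the 7 (-0.34 ± 0.10, limma adjusted p = 0.0351), at signals of at most 20.7. It passed the filter only through 1 array of part 1 (20.7) and 1 of part 2 (18.8), the pieces where it was highest. Its call is therefore no evidence of a course. The steepest falls in the list were those of Cyp26a1, an enzyme that degrades retinoic acid (-1.49 ± 0.13, 8.48e-06), and of Fgf8, a growth factor of the tail bud (-0.88 ± 0.08, 1.40e-05). Fgf8 passed the filter only through arrays of parts 1 to 3, where it was highest, so its call is limited in the same way. Its signals were 112 and 68.7 in part 1 and 1.26 and 0.295 in part 6. Nr6a1, an orphan nuclear receptor that in the mouse acts on trunk Hox expression, rose (0.71 ± 0.05, 6.76e-07).

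Proteins that bind DNA together with Hox factors went the other way or did not pass. Of 7 tested cofactors, 4 rose and 0 fell, with a median slope of 0.25 log2 per part, beside higher calls for 5.66% of all genes. Over parts 1 to 6 the mean signals of Meis1 were 13.1 ± 1.65, 48.2 ± 17.1, 79.1 ± 23.0, 153 ± 12.6, 333 ± 65.6 and 496 ± 62.9 (slope 0.95 ± 0.05, limma adjusted p = 1.24e-07). Meis2 (1.01 ± 0.11, 5.11e-05) and Pbx3 (0.44 ± 0.07, 0.000748) rose as well. Of 12 chromatin regulators of the Hox clusters 1 rose, Bmi1, a Polycomb protein (0.27 ± 0.03, 0.000130), and 0 fell. Of 3 noncoding RNAs of the clusters 1 fell, Hoxa11os (-1.09 ± 0.17, 0.000781), which lies beside Hoxa11 and not beside a trunk gene.

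Markers of presomitic mesoderm and of surface ectoderm fell along the same axis. The summed signal of 8 presomitic mesoderm markers was 4020 to 5565 in part 1, 2223 to 3646 in part 2, 657 to 672 in part 3, 382 to 446 in part 4, 268 to 351 in part 5 and 248 to 260 in part 6, and 4 of 7 tested fell. Somite markers summed to between 60.3 and 473 on all arrays, with 4 of 7 (Myf5, Pax1, Pax9 and Uncx) below the array median throughout, and lateral plate markers to between 22.1 and 59.5, with Hand2 and Prrx1 below the median throughout. Surface ectoderm markers summed to 99.9 to 135 in part 6 and 417 to 1086 in part 1, and 6 of 6 tested fell. Lower slope calls were made for 7.08% of all genes. Tbx6 of the presomitic list and Cdh1 of the surface ectoderm list are counted among these falls. Both passed the filter only through arrays of parts 1 and 2, where they were highest. Their calls are therefore no evidence of a course. Notochord markers summed to 57.5 to 588, gut endoderm markers to 6.61 to 126 and endothelial markers to 19.7 to 46.3 over all arrays, and blood markers to between 52.3 and 9936. The highest sums of somite, notochord and gut endoderm markers, 473, 588 and 126, lay in replicate 1 of part 2. There Shh gave 504, Foxc2 185, Meox1 109 and Foxa1 116, against 25.3, 1.15, 2.82 and 17.7 in replicate 2. In the same array the Hox average and Cdx2 were below those of replicate 2. The part of these tissues in the slopes of the Hox genes was not tested.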

How the data were processed

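RNA of 12 neural tube pieces was labelled by a 2-round amplification and hybridised to Affymetrix arrays, per the labels' protocols. The deposited table holds linear intensities; per the submitters' processing notes, the authors made them with MAS5. The sources used here do not give its version or settings. Leaving out the highest and lowest 2% of values, the mean was 100 on every array. Of 45101 probe sets, 64 controls were left out, and genes were named through the platform annotation, in which 34945 probe sets name 1 gene and 932 name several. Probe sets above the median of their own array on at least 2 arrays were kept, and each gene was represented by its probe set of highest mean signal.

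Tests used limma 3.58.1 in R 4.3.3 on log2(signal + 4.43), the offset being 0.25 times the median signal of 17.7, with Benjamini-Hochberg adjustment over 12089 genes. Paralogue pairs were tested by permutation within replicates (Python 3.11.15, numpy 2.4.6, pandas 2.3.3; figures with matplotlib 3.10.9). The scripts were tested on simulated data. The design text names 2 embryos, and in 15 of 15 pairs of pieces the same-numbered replicates deviated together (r from 0.183 to 0.335, median 0.234), so replicate numbers were taken to mark embryos, and a fit blocked on the embryo was an alternative. Alternatives also covered the offset, the filter, the choice of probe set, quantile normalization and left-out arrays. The number of arrays limits the precision, and p-values rest on 2 embryos.

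All trunk Hox genes are described. Of each other list the text may name the 3 genes with the smallest slope p, and of all genes the 5 most like the average course, passing over clone and predicted-gene symbols, with the nearest Hox gene of each member. Cdx1, Cdx4, Sox2, Tbx6, Cdh1, Mesp2, Lfng, Msgn1, Hoxa10, Hoxc10 and Hoxd10 were named after their values were seen. The members and lists were chosen with earlier results of these data known.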

Additional observations from a re-analysis of the deposited data

How the results depend on the processing

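The trunk Hox genes kept a negative slope under every alternative in which they were tested (7 of the 8 with the filter at the 75th percentile, which Hoxb9 did not pass), and Hoxd8 kept its call in each. The count of called slopes, 4 of 8, was 2 to 5 on leaving out 1 array and 1 without both arrays of part 6. The call of Hoxa7 was lost there (adjusted p = 0.113), as were those of Hoxc6 (0.282) and Hoxc9 (0.123), and Hoxc6 also without both arrays of part 1 (0.127). Hoxc8 passed without replicate 1 of part 1 (0.0311), replicate 2 of part 1 (0.0407) or both (0.00705), with an offset of 16 (0.0454) and with a filter at the 75th percentile (0.0399). The count for curvature, 1, was 0 with an offset of 1, no filter, quantile normalization, without both arrays of part 1 or of part 6, and 0 on leaving out any array. For part 6 against part 1 the count of 4 was 2 with no filter and 0 to 4 on leaving out 1 array, and the calls among all genes, 1099, were 608 without replicate 1 and 488 without replicate 2 of part 6. For parts 5 and 6 against parts 3 and 4 the count of 1 was 0 with an offset of 1, no filter or quantile normalization, and 0 to 1 on leaving out 1 array. The F test gave 1 call with the filter at the 75th percentile. With the embryo as a block, the pairing raised the count to 5 for part 6 against part 1 and to 1 for the F test (Hoxc8 in both), and changed no other call among the 8 genes. Curvature changed sign for Hoxb9 with an offset of 16 (0.0133), quantile normalization (0.00114) and without part 6 (0.157), and ran from -0.0394 to 0.0601 on leaving out 1 array; for Hoxd8 with the mean of its probe sets (-0.0471) and without part 1 (-0.00272); for Hoxc6 without part 6 (0.0362); and for Hoxc9 on leaving out 1 array (-0.0431 to 0.00435). Among pairs, Hoxa9 minus Hoxa7 lost its call without part 6 (0.159) and ranged over 0.152 to 0.279 on leaving out 1 array. Hoxb6 minus Hoxc6 lost its call without part 1 (0.0814) or part 6 (0.130) and ranged over 0.0938 to 0.163. Hoxc9 minus Hoxc6 was -0.0163 without part 6, Hoxc9 minus Hoxb9 was -0.0129 without part 1, and Hoxd8 minus Hoxc8 was 0.0762 without part 1 and -0.0421 to 0.0223 on leaving out 1 array. The cause of these changes was not tested. Hoxb9, near the array median, is limited by its signal over background.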

Other observations

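A probe set whose annotation names both Hoxb8 and Hoxb7 was left out of all comparisons. Its signals were 89.1 and 37.7 in part 1, 70.3 and 40.3 in part 2, 108 and 39.7 in part 3, 161 and 68.6 in part 4, 157 and 84.4 in part 5, and 86.7 and 39.4 in part 6. Replicate 1 was above replicate 2 in 6 of 6 pieces, and both replicates were highest in parts 4 and 5.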
